A study of Mus musculus with 9 samples.

Results

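Lung RNA of 9 mice was examined for the Cxcr3 and Cxcr6 chemokine axes, 7 genes that guide lymphocytes into tissue. They are Cxcl9, Cxcl10 and Cxcl11, the ligands of the receptor Cxcr3, the receptor itself, Cxcl16 with its receptor Cxcr6, and Ifng, the cytokine interferon-gamma. Every probe set whose only gene symbol in the platform annotation is one of these 7 was taken, which gave 11 of the 45101 probe sets and 7 of 18194 genes with a probe set of their own.

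All mice were female C57BL/6 animals, 14 weeks old, and all received a replication-deficient adenovirus into the trachea 14 days before the lungs were taken. The control virus, AdV-NULL, encoded no cytokine, AdV-IL4 encoded mouse IL-4, and AdV-IL4d2 encoded mouse IL-4d2, a splice form of IL-4. Each virus was given to 3 mice, with 1 array per mouse. The groups are called control, IL-4 and IL-4d2 mice here, and the control mice also carry an adenoviral infection, so no uninfected lung enters the comparisons. The promoter that drives the cytokines and the virus doses are not given in the sources used here, and whole lung was homogenised, so the cells that made each RNA were not separated.

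Chemokines are small secreted proteins that bind receptors on leukocytes and steer them along a gradient. Cxcl9, Cxcl10 and Cxcl11 are known as interferon-gamma induced ligands, and Cxcr3 is carried mainly by activated T cells, natural killer cells and some innate-like T cells. Cxcl16 differs in being made as a membrane-bound protein that proteases can shed, and its receptor Cxcr6 marks resident and effector T cells and natural killer T cells in lung and liver. Interferon-gamma is the defining cytokine of type 1 immunity, whereas IL-4 is the defining cytokine of type 2 immunity, and the comparisons ask how a type 1 chemokine system stands in lungs that overexpress a type 2 cytokine or its splice form.

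Cxcl9, Cxcl10 and Cxcl11 are neighbours on mouse chromosome 5, while Cxcr3 lies on chromosome X, Cxcl16 on 11, Cxcr6 on 9 and Ifng on 10. RefSeq lists Cxcl11 in its C57BL/6J-based mouse annotation as a transcribed pseudogene, so the array measures an RNA that is not expected to give the full protein in this strain. The promoters of the ligands with the largest differences, Cxcl9 and Cxcl10, are shown so that the interferon and NF-kappaB letters of these neighbouring genes can be compared. The sequences are the 250 bases before the annotated start, from RefSeq on GRCm38.p6, minus strand, chr5:92328080-92328329 for Cxcl9 and chr5:92348890-92349139 for Cxcl10, and capitals mark motif matches.
Cxcl9: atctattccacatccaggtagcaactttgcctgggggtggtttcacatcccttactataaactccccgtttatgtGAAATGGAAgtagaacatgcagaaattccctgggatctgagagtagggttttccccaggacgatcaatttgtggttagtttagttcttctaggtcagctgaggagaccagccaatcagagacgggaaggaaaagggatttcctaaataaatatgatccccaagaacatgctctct
Cxcl10: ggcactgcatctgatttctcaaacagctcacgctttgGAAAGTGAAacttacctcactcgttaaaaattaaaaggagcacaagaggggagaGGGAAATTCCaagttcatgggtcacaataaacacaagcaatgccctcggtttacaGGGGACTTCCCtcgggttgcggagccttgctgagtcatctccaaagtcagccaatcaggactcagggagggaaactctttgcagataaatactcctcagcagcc
Exact letters were searched on both strands for the gamma-activated sequence TTCNNNGAA, the STAT6 form with TTC and GAA around a spacer of 4 bases, the interferon-stimulated response element core GAAANNGAA and the NF-kappaB consensus. The Cxcl10 window held GAAAGTGAA, 213 to 205 bases before the start, and 3 NF-kappaB matches. One of these, GGGAAATTCC, lies 159 to 150 bases before the start, and the others, GGGGACTTCC and GGGACTTCCC, overlap each other by all but 1 base between 104 and 94 bases before it. The Cxcl9 window held GAAATGGAA, 175 to 167 bases before the start, and no match to the other patterns. Promoter windows were found for 5 of the 7 genes, those of Cxcl9, Cxcl10, Cxcr3, Cxcr6 and Ifng, and the only further match was TTCAGAGAA at the far end of the Ifng window, 249 to 241 bases before the start. Among all 32851 promoter windows of this length, 7.02% held the gamma-activated letters, 5.85% the STAT6 letters, 7.13% the response element core and 7.25% the NF-kappaB consensus. A match is a description of the letters and not a shown binding site.

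Signals are MAS5 intensities on a linear scale, with array medians from 156 to 171. Differences are on the scale of log2(signal + 16), with the standard error of a limma model fitted to 23824 probe sets, and a gene is said to rise, fall or be called where its Benjamini-Hochberg adjusted p over all those probe sets was below 0.05. A probe set had to exceed the median of its own array on at least 3 of 9 arrays to be tested, and 8 of the 11 probe sets did, covering 5 of the 7 genes. The probe sets of Cxcl11 and Ifng were below the median on all 9 arrays and were not tested. Il4 itself, the gene the viruses carry, had signals of 43.5 ± 27.9 in control, 338 ± 39.1 in the IL-4 group and 872 ± 343 in the IL-4d2 group (SD over 3 mice in each). The difference in Il4 between the cytokine groups was −1.25 ± 0.35 and was not called (limma adjusted p = 0.104).

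The ligands Cxcl9 and Cxcl10 and the receptor Cxcr3 rose with both cytokine viruses on the MAS5 scale, as did Cxcl16. Cxcr6 was not called with either. By the probe set that stands for each gene, 4 of the 5 tested genes were called higher with IL-4, where 5.6% of all tested probe sets were called higher and 10.7% were called in either direction. With IL-4d2 the count was also 4 of 5, against 0.928% called higher and 1.32% in either direction over all tested probe sets. Between IL-4 and IL-4d2 0 of 5 was called by limma, and 0 had an unadjusted p below 0.05, with 1.75% called over all tested probe sets. Of the 8 tested probe sets, 7 lay wholly above control with IL-4 and 7 with IL-4d2, where 14.5% and 10.6% of all tested probe sets did so. The count of tested members is a description and no support, because Cxcl9 was above the array median on only 1 control array and its dimmer probe set on 0, so it entered the test through the cytokine groups. The IL-4 count was 4 or 5 in the 9 fits with 1 array left out, and the IL-4d2 count ran from 1 to 4, being 1 without control mouse 1 or IL-4d2 mouse 1, 2 or 3 and 2 without control mouse 3. Without the filter on low signals, or without the trend in the variance, the IL-4d2 count was 2.

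**Figure D1:**
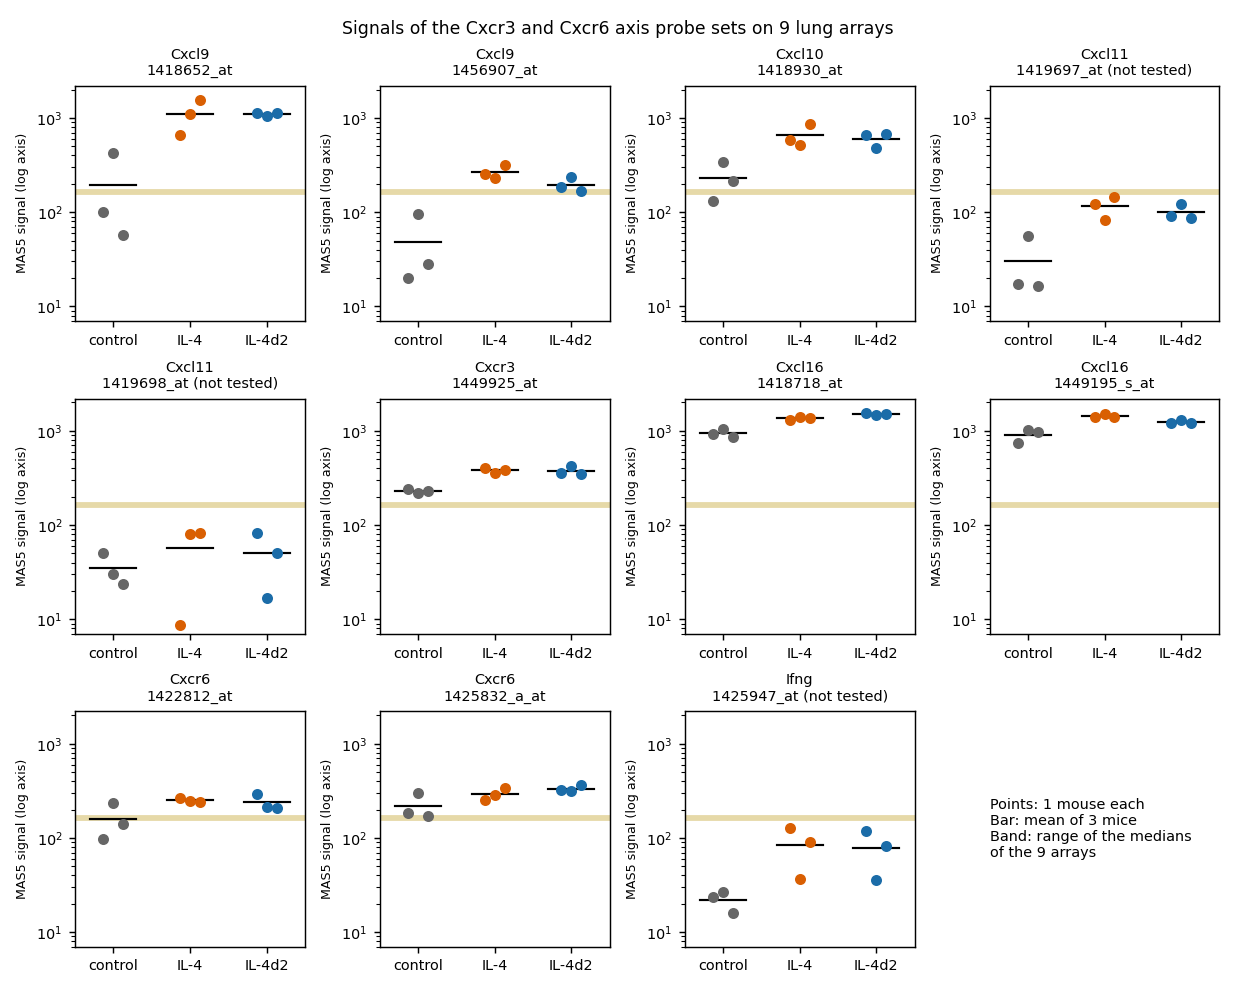
MAS5 signal (log axis) of the 11 probe sets on each of the 9 arrays, with 1 point per mouse, a bar at the mean of the 3 mice of a group and a band at the array medians of 156 to 171. Cxcl9, Cxcl10, Cxcr3 and Cxcl16 lie higher in both cytokine groups than in control, while Cxcl11 and Ifng stay below the band on all arrays.

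Cxcl9, the ligand known for strict dependence on interferon-gamma, showed the largest differences of the 7 genes. On its brighter probe set, 1418652_at, signals were 101, 425 and 56.7 in control mice 1 to 3, 659, 1091 and 1553 in IL-4 mice and 1136, 1041 and 1118 in IL-4d2 mice. The groups with a cytokine did not overlap with control, and control mouse 2 stood above the other control mice. The 3 IL-4d2 signals were close together, while the IL-4 signals spread over a wider range. Cxcl9 was 6.78-fold higher with IL-4, a log2 difference of 2.76 ± 0.50 (limma adjusted p = 0.00522). It was 7.16-fold higher with IL-4d2 (2.84 ± 0.50, limma adjusted p = 0.0148). The size of these values depended on the spread of the control mice. With 1 array left out, the log2 differences ran from 2.21 to 3.51 with IL-4 and from 2.29 to 3.59 with IL-4d2. The highest values were those without control mouse 2.

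The dimmer Cxcl9 probe set, 1456907_at, was also higher than control in both cytokine groups. Its signals were 20.0, 95.7 and 27.99 in control, 254, 230 and 314 in IL-4 and 186, 235 and 169 in IL-4d2 mice. No cytokine mouse overlapped with control, and control mouse 2 was again the highest of its group. The differences were 2.32 ± 0.37 with IL-4 (limma adjusted p = 0.0027) and 1.91 ± 0.37 with IL-4d2 (limma adjusted p = 0.0279). Both probe sets were called with IL-4 in each of the 9 fits that left out 1 array. With IL-4d2 the brighter probe set kept its call in 5 of 9 and lost it without control mouse 1 (2.64) and without IL-4d2 mouse 1, 2 or 3 (2.82, 2.88 and 2.83). The dimmer one kept its IL-4d2 call in 4 of 9 and lost it when control mouse 1 (1.59), control mouse 3 (1.73) or IL-4d2 mouse 1, 2 or 3 (1.94, 1.78 and 2.003) was left out.

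Cxcl10, the ligand that interferons of several types induce in epithelium, endothelium and macrophages, had signals of 131, 339 and 215 in control mice. Its signals were 579, 516 and 872 in IL-4 and 667, 477 and 672 in IL-4d2 mice. All 6 cytokine mice were above all 3 control mice, with control mouse 2 highest among the controls as for Cxcl9. Cxcl10 rose 2.85-fold with IL-4 (1.51 ± 0.28, limma adjusted p = 0.0063). The IL-4d2 virus gave a 2.68-fold rise (1.42 ± 0.28, limma adjusted p = 0.0307). The IL-4 call held in 9 of 9 fits with 1 array left out. The IL-4d2 call held in 4 of 9 and was lost without control mouse 1 (1.10), control mouse 3 (1.43) or IL-4d2 mouse 1, 2 or 3 (1.34, 1.58 and 1.34).

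Cxcl11, the ligand with the tightest binding to Cxcr3 in species that make it, was dim throughout. On probe set 1419697_at its signals were 17.1, 56.6 and 16.4 in control, 122, 83.0 and 143 in IL-4 and 90.7, 124 and 85.8 in IL-4d2 mice. The cytokine groups lay wholly above control. In the fit without the filter on low signals the differences were 1.60 ± 0.38 with IL-4 (limma adjusted p = 0.0384) and 1.43 ± 0.38 with IL-4d2 (limma adjusted p = 0.166). The brightest probe set for trpn, a bacterial RNA absent from mouse, was at or above the Cxcl11 signal on 1 control array. With that signal as a floor, the mean of Cxcl11 was 2.65-fold that of control for the IL-4 virus and 2.35-fold for the IL-4d2 virus. These are estimates without an error and no lower limits. The other Cxcl11 probe set, 1419698_at, disagreed in that its groups overlapped, with signals of 51.1, 30.0 and 23.5 in control, 8.8, 80.9 and 81.8 in IL-4 and 82.9, 16.8 and 50.4 in IL-4d2 mice. Its differences were 0.32 ± 0.57 and 0.27 ± 0.57 (limma adjusted p = 0.845 and 0.922 without the filter).

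Ifng, the inducer named above, was also dim. Probe set 1425947_at read 23.5, 26.7 and 16.0 in control mice, 127, 36.7 and 91.4 in IL-4 mice and 119, 36.0 and 82.3 in IL-4d2 mice. The 6 cytokine mice were above the 3 controls, and mouse 2 was the lowest in each cytokine group. The signal was at or under that of trpn on 2 control arrays. With trpn as the floor there, the mean of Ifng was 1.92-fold that of control in IL-4 mice and 1.82-fold in IL-4d2 mice. These are estimates without an error and no lower limits. Mouse 2 of each cytokine group lay below the trpn signal of control mouse 2, 55.8. In the fit without the filter the differences were 1.30 ± 0.45 and 1.22 ± 0.45 and were not called (limma adjusted p = 0.15 and 0.351). Of the 3 untested probe sets, 2 lay wholly above control with each cytokine virus. No such share was taken over all untested probe sets, so this count is a description only.

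Cxcr3, the receptor that these ligands share and the only receptor of the pair that was called, varied little between mice of a group. Its signals were 244, 221 and 230 in control, 403, 359 and 389 in IL-4 and 357, 428 and 345 in IL-4d2 mice, so no cytokine mouse overlapped with control. Cxcr3 rose 1.61-fold with IL-4 (0.69 ± 0.14, limma adjusted p = 0.00799), a call that held in 9 of 9 fits with 1 array left out. It rose 1.58-fold with IL-4d2 (0.66 ± 0.14, limma adjusted p = 0.035). That call held in only 2 of 9 such fits, being lost when any control mouse was left out (0.69, 0.63 and 0.66 for mouse 1 to 3), when any IL-4d2 mouse was (0.69, 0.57 and 0.72) and when IL-4 mouse 3 was (0.66). In whole lung, more cells that carry a receptor and more RNA per cell cannot be told apart, and this holds for each gene here.

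**Figure D2:**
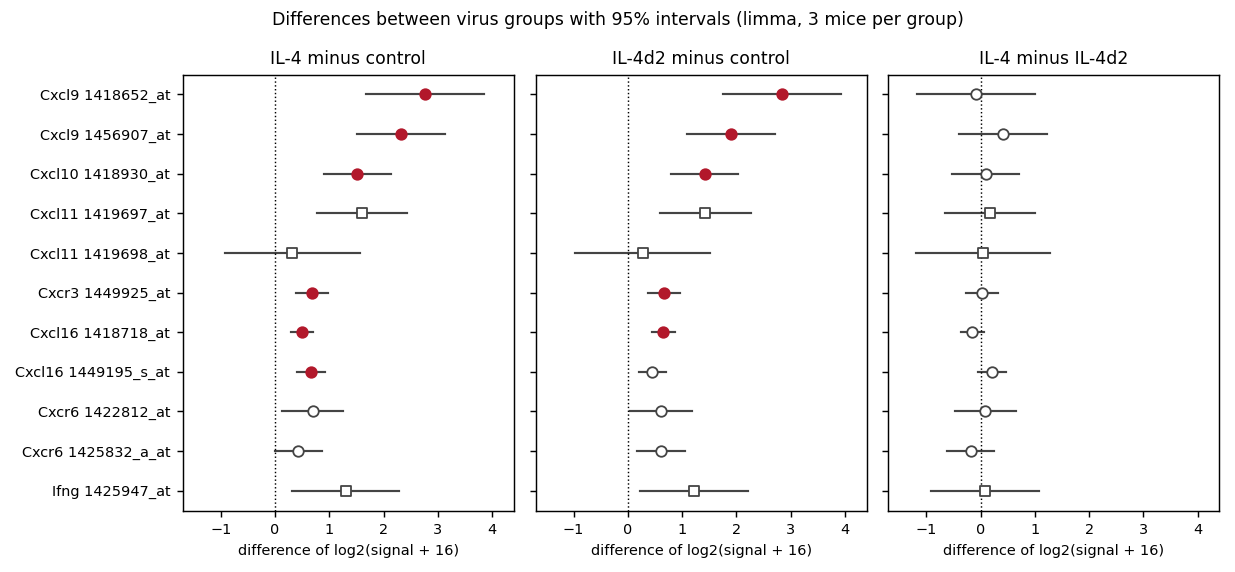
Log2 difference (x axis) with its 95% interval for each of the 11 probe sets in the 3 comparisons, from limma with 3 mice per group. Filled points were called, open circles were tested and not called, and open squares come from the fit without the filter on low signals. Called points appear in both comparisons with control and in none between IL-4 and IL-4d2 on the MAS5 scale, and on the poly-A scale the IL-4 differences of Cxcr3 and Cxcl16 turned to −0.067 and −0.28.

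Cxcl16, the ligand of Cxcr6, was bright on all 9 arrays. Probe set 1418718_at read 935, 1055 and 868 in control, 1292, 1406 and 1360 in IL-4 and 1548, 1464 and 1504 in IL-4d2 mice. The 3 groups did not overlap with one another. The gene rose 1.42-fold with IL-4 (0.50 ± 0.09, limma adjusted p = 0.00639) while the IL-4d2 virus raised it 1.57-fold (0.66 ± 0.09, limma adjusted p = 0.00397). Each call held in 9 of 9 fits with 1 array left out, but the IL-4 call was lost when both control mouse 1 and IL-4 mouse 2 were left out (0.46, limma adjusted p = 0.0612).

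The second Cxcl16 probe set, 1449195_s_at, also lay above control in every cytokine mouse and reversed the order of the cytokine groups. It read 742, 1018 and 977 in control, 1418, 1503 and 1403 in IL-4 and 1200, 1314 and 1218 in IL-4d2 mice. Here IL-4 mice were above IL-4d2 mice, where the first probe set had them below. The differences from control were 0.66 ± 0.12 with IL-4 (limma adjusted p = 0.00438) and 0.45 ± 0.12 with IL-4d2, which was not called (limma adjusted p = 0.0865).

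Cxcr6, the receptor of Cxcl16, was not called on either of its probe sets. Probe set 1425832_a_at read 186, 297 and 169 in control, 256, 283 and 336 in IL-4 and 320, 314 and 362 in IL-4d2 mice. Control mouse 2 overlapped with the IL-4 mice and lay below the IL-4d2 mice. The differences were 0.43 ± 0.20 with IL-4 and 0.61 ± 0.20 with IL-4d2 (limma adjusted p = 0.203 and 0.179). Probe set 1422812_at read 97.9, 234 and 142 in control, 265, 247 and 241 in IL-4 and 295, 214 and 206 in IL-4d2 mice, with differences of 0.69 ± 0.26 and 0.61 ± 0.26 (limma adjusted p = 0.115 and 0.311). Control mouse 2 was the highest control on both. Without it the first probe set was called with IL-4 (0.66, limma adjusted p = 0.0393) and with IL-4d2 (0.84, limma adjusted p = 0.0378), and the second with IL-4 (0.99, limma adjusted p = 0.0228). Among the controls, the second was above the array median in mouse 2 only. It therefore entered the test through the cytokine groups, and its call without that mouse is a description and no support.

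On the MAS5 scale no tested gene was called between IL-4 and IL-4d2. For Cxcl9 the difference of IL-4 minus IL-4d2 was −0.08 with a 95% interval from −1.17 to 1.01, and for Cxcl10 it was 0.09, from −0.52 to 0.71. These intervals are wide enough to hold a difference of 1 log2 unit in either direction for Cxcl9. They were narrower for Cxcr3, at 0.03 with an interval from −0.26 to 0.32, and for Cxcl16, at −0.15, from −0.36 to 0.05, on the first probe set and 0.21, from −0.04 to 0.46, on the second. The Cxcl16 probe sets thus differ in sign, each with groups that do not overlap and neither called (limma adjusted p = 0.451 and 0.4), while 22% of all tested probe sets had such groups. For Cxcr6 the differences were −0.18, from −0.62 to 0.25, and 0.09, from −0.48 to 0.65. A p above the threshold does not show that the viruses act alike, and the Il4 signals of the groups are given above. On the hybridisation and poly-A scales described below, 2 and 5 of the 5 genes were called lower with IL-4, where the median of all tested probe sets itself moved to −0.52 and −1.04.

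**Figure D3:**
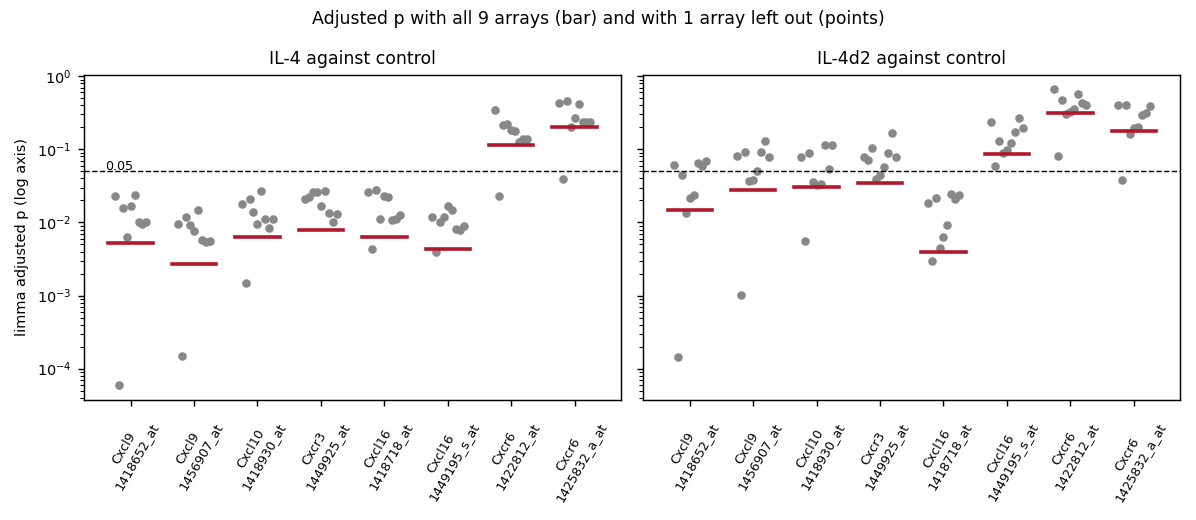
Limma adjusted p (log axis) of the 8 tested probe sets with all 9 arrays (bar) and with each array left out in turn (9 points), with the threshold of 0.05 dashed. Against control, the IL-4 points of Cxcl9, Cxcl10, Cxcr3 and Cxcl16 stay below the line, while with IL-4d2 only those of Cxcl16 on probe set 1418718_at do so throughout.

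MAS5 sets each array to the same typical signal, and the arrays' added control RNAs give other scales. Scaled to the hybridisation controls, the median over all tested probe sets moved to −0.43 with IL-4 and 0.085 with IL-4d2. Scaled to the poly-A controls, it moved to −0.77 and 0.27. With IL-4, 1335 probe sets were called higher and 1211 lower on the MAS5 scale, 295 and 7156 on the hybridisation scale and 152 and 17971 on the poly-A scale. With IL-4d2 these counts were 221 and 93, 245 and 63, and 469 and 50. Between IL-4 and IL-4d2 they were 217 and 199, 89 and 11074, and 33 and 22470. Cxcl9 and Cxcl10 rose under both of these scales too, with IL-4 values of 2.34 and 2.004 for Cxcl9 on its brighter probe set and of 1.09 and 0.75 for Cxcl10. The IL-4 differences of Cxcr3 and Cxcl16 did not keep their calls, with Cxcr3 at 0.26 and −0.07 and Cxcl16 at 0.06 and −0.28, so their rise with IL-4 is relative to the bulk of the genes. Taken relative to the shifted median, they were 0.70 for Cxcr3 under both scales, and 0.50 and 0.49 for Cxcl16. With IL-4d2 Cxcr3 and Cxcl16 were both 0.75 on the hybridisation scale, where neither was called, and both 0.93 on the poly-A scale, where both were.

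Among the genes that induce Ifng, 0 of the 9 tested of 14 listed cytokines, receptors and factors were called by limma with either cytokine virus, and 2 had an unadjusted p below 0.05 with each. The 2 with IL-4d2 are named here after their values were seen. Il12b, a chain of IL-12, read 97.6, 165 and 98.8 in control, 131, 116 and 227 in IL-4 and 233, 186 and 199.8 in IL-4d2 mice. Its IL-4d2 mice lay above control, at a difference of 0.73 ± 0.28 (limma adjusted p = 0.249), and its IL-4 mice overlapped with control. Tbx21, the transcription factor T-bet, read 168, 194 and 181 in control, 218, 213 and 259 in IL-4 and 282, 236 and 298 in IL-4d2 mice. Both cytokine groups lay above control for Tbx21, by 0.31 ± 0.17 (limma adjusted p = 0.259) and 0.54 ± 0.17 (limma adjusted p = 0.148). The median difference was 0.23 with IL-4 and 0.33 with IL-4d2, against −0.00355 and −0.00346 over all tested probe sets. Il18r1, a chain of the IL-18 receptor, read 3594, 3305 and 2884 in control, 3380, 3295 and 2975 in IL-4 and 2129, 4166 and 1744 in IL-4d2 mice. Il18, its ligand, differed by −0.44 ± 0.19 with IL-4 (limma adjusted p = 0.162) and by −0.13 ± 0.19 with IL-4d2 (limma adjusted p = 0.807). The 2 with IL-4 were Il18 and Il18bp, the IL-18 binding protein, also named after the values were seen. Il18bp differed by 1.09 ± 0.47 with IL-4 (limma adjusted p = 0.168), and its groups overlapped. Il12a, the other chain of IL-12, was too dim to be tested. It read 157, 109 and 129 in control, 58.8, 95.3 and 72.0 in IL-4 and 99.1, 150 and 96.2 in IL-4d2 mice. Its IL-4 mice thus lay below control.

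Of 8 tested genes of interferon-gamma receptor signalling, 2 rose with IL-4 and 0 with IL-4d2 by limma, against 5.6% and 0.928% of all tested probe sets, and 3 had an unadjusted p below 0.05 with IL-4d2. The median differences were 0.32 and 0.22. Ptpn2, a phosphatase that dampens JAK and STAT signalling, was 1.48-fold higher with IL-4 (0.57 ± 0.11, limma adjusted p = 0.00745). Irf1, a transcription factor that interferon-gamma induces, read 2285, 2474 and 2037 in control, 3186, 3263 and 2773 in IL-4 and 2814, 2568 and 2682 in IL-4d2 mice. The Irf1 difference was 0.44 ± 0.10 with IL-4 (limma adjusted p = 0.0143) and was lost without control mouse 3 (0.36). With IL-4d2 it was 0.25 ± 0.10, not called (limma adjusted p = 0.258), although its groups did not overlap. On the poly-A scale both IL-4 differences turned, to −0.22 for Ptpn2 and −0.35 for Irf1, and on the hybridisation scale that of Irf1 turned to −0.01.

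Of 16 tested genes that interferon-gamma is known to induce besides the ligands, 8 rose with IL-4 and 1 with IL-4d2, against 5.6% and 0.928% of all tested probe sets. Their median differences were 0.55 and 0.23, and the difference between these counts was not tested. Gbp6, a guanylate-binding protein that acts against intracellular pathogens, read 728, 1768 and 981 in control, 2663, 3193 and 3469 in IL-4 and 2252, 1480 and 2025 in IL-4d2 mice. It was 2.83-fold higher with IL-4 (limma adjusted p = 0.00374, standard error 0.26 on the log2 scale), and its IL-4d2 mice overlapped with control (0.80 ± 0.26, limma adjusted p = 0.17). H2-Ab1, an MHC class II chain, read 3560, 6047 and 3600 in control, 9075, 9755 and 8670 in IL-4 and 6829, 7400 and 7208 in IL-4d2 mice. H2-Ab1 rose with IL-4 (1.10 ± 0.16, limma adjusted p = 0.00173) and with IL-4d2 (0.74 ± 0.16, limma adjusted p = 0.0499). The IL-4d2 call was lost in 8 of 9 fits with 1 array left out, at values from 0.61 to 0.77, and held without control mouse 2 (0.99). Cd74, the class II invariant chain, was higher by 1.07 ± 0.16 with IL-4 (limma adjusted p = 0.00208) and by 0.68 ± 0.16, not called, with IL-4d2 (limma adjusted p = 0.07). IL-4 is itself known to raise class II genes in B cells and macrophages, so these members are not specific to interferon-gamma.

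Igtp and Iigp1, GTPases of the interferon-inducible family, and Ciita, the class II transactivator, were called with IL-4 at 0.76 ± 0.18, 0.75 ± 0.18 and 0.68 ± 0.18 (limma adjusted p = 0.0193, 0.0233 and 0.0367). Igtp and Iigp1 each lost the call when control mouse 1 (0.67 and 0.61), control mouse 3 (0.62 and 0.65) or IL-4 mouse 3 (0.65 and 0.61) was left out. Ciita was no longer called when control mouse 1 (0.59), control mouse 3 (0.63), IL-4 mouse 1 (0.67), IL-4 mouse 3 (0.53) or IL-4d2 mouse 1 (0.68) was left out. On the poly-A scale these IL-4 differences were −0.03 for Igtp, −0.05 for Iigp1 and −0.08 for Ciita. With IL-4d2 none of the 3 was called, at 0.53, 0.32 and 0.21 (limma adjusted p = 0.192, 0.471 and 0.655). Between IL-4 and IL-4d2 0 of the 16 genes was called by limma, while 9 had an unadjusted p below 0.05 and 15 were higher with IL-4. Such shares were not taken over all tested probe sets, so these counts are a description only. The median difference of the 16 was 0.39 on the MAS5 scale. The median of all tested probe sets moved to −0.52 on the hybridisation scale and −1.04 on the poly-A scale.

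**Figure D4:**
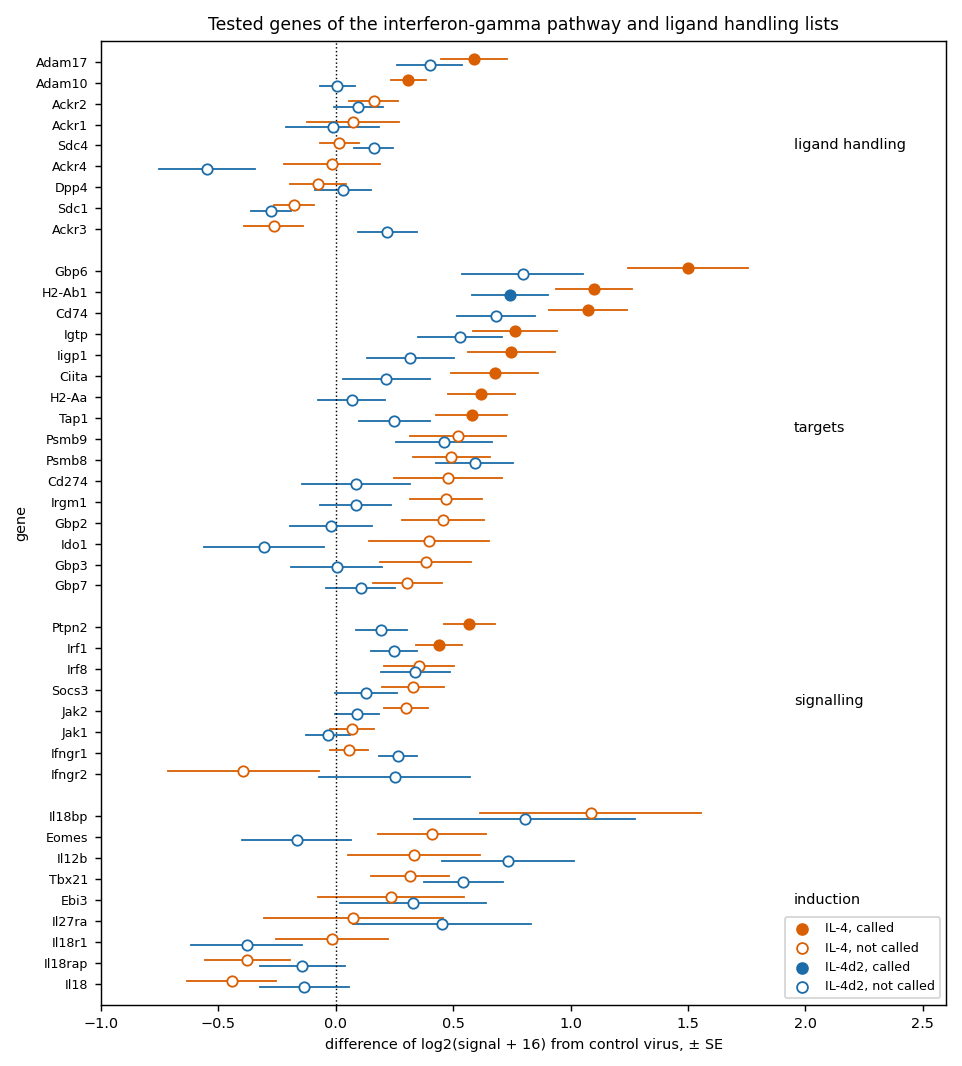
Log2 difference from control with its standard error (x axis) for the 42 tested genes of the interferon-gamma induction, signalling, target and ligand handling lists, IL-4 in orange and IL-4d2 in blue, filled where called. Called points are 12 for IL-4 and 1 for IL-4d2, H2-Ab1.

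Proteins that process the ligands were tested for all 9 listed genes, and 2 rose with IL-4 and 0 with IL-4d2 by limma, against 5.6% and 0.928% of all tested probe sets, and 3 had an unadjusted p below 0.05 with IL-4d2. The median differences were 0.016 and 0.029. Adam10 and Adam17 are the membrane proteases known to shed Cxcl16. Adam17 read 718, 1083 and 883 in control, 1226, 1530 and 1268 in IL-4 and 1138, 1131 and 1241 in IL-4d2 mice. It was higher by 0.59 ± 0.14 with IL-4 (limma adjusted p = 0.0201), a call lost when control mouse 1 (0.44), control mouse 3 (0.59) or IL-4 mouse 2 (0.49) was left out, and by 0.40 ± 0.14 with IL-4d2, not called (limma adjusted p = 0.203). Adam10 was higher by 0.31 ± 0.07 with IL-4 (limma adjusted p = 0.0219), lost when 1 of the control mice 1 (0.29) and 3 (0.31) or of the IL-4 mice 1 (0.28) and 2 (0.29) was left out, and lay at 0.01 ± 0.07 with IL-4d2. On the poly-A scale the IL-4 differences were −0.20 for Adam17 and −0.49 for Adam10, and on the hybridisation scale that of Adam10 was −0.14.

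Of 12 tested genes in a list of other CXC and CX3C chemokines and receptors, 2 fell with IL-4, where 5.08% of all tested probe sets fell, and 0 were called with IL-4d2 by limma, where 0.39% of all tested probe sets fell and 2 of the 12 had an unadjusted p below 0.05, with medians of 0.040 and 0.18. Ppbp, a platelet chemokine, read 723, 980 and 984 in control, 453, 395 and 508 in IL-4 and 644, 653 and 1074 in IL-4d2 mice. Ppbp fell by 0.96 ± 0.19 with IL-4 (limma adjusted p = 0.00918). Cx3cl1, the other membrane-bound chemokine, fell by 0.58 ± 0.15 with IL-4 (limma adjusted p = 0.0284), a call lost when 1 of the control mice 1 (−0.48) and 2 (−0.58) or of the IL-4 mice 1 (−0.59) and 3 (−0.53) was left out. The differences with IL-4d2 were −0.20 ± 0.19 and −0.05 ± 0.15, not called.

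The cells that carry these receptors were followed by marker lists, and their part in the results above was not tested. Of all tested probe sets, 5.6% were called higher with IL-4 and 0.928% with IL-4d2. Of 7 tested T cell markers, 0 was called with IL-4 by limma, where 3 had an unadjusted p below 0.05, and 1 rose with IL-4d2. That was Cd3g, a chain of the T cell receptor complex, at 359, 437 and 291 in control, 454, 477 and 694 in IL-4 and 706, 578 and 718 in IL-4d2 mice. Cd3g differed by 0.86 ± 0.18 with IL-4d2 (limma adjusted p = 0.0399) and 0.55 ± 0.18 with IL-4 (limma adjusted p = 0.0757), and the IL-4d2 call was lost without control mouse 1 (0.87) or 3 (0.72) or IL-4d2 mouse 1 (0.82), 2 (0.96) or 3 (0.81). The summed signal of the 9 T cell markers ran from 1711 to 2152 in control, 2070 to 2703 in IL-4 and 2574 to 2851 in IL-4d2 mice, so IL-4d2 mice lay above control while IL-4 mice overlapped with it.

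Of 8 natural killer and cytotoxic markers, 1 rose with IL-4, where 5.6% of all tested probe sets did. This was Il2rb, the shared receptor chain of IL-2 and IL-15. Il2rb was above the array median on only 1 control array, so it entered the test through the cytokine groups. Il2rb read 109, 165 and 95.3 in control, 327, 292 and 239 in IL-4 and 309, 176 and 279 in IL-4d2 mice. It differed by 1.14 ± 0.25 with IL-4 (limma adjusted p = 0.0138), lost without control mouse 1 (1.08), and by 0.96 ± 0.25 with IL-4d2 (limma adjusted p = 0.0905). The summed signal of the 9 markers overlapped between control, 4312 to 5621, and IL-4, 4166 to 5008, and ran from 5420 to 6471 with IL-4d2. Neither of the 2 tested markers of natural killer T and innate-like T cells was called with either virus. With IL-4d2 both had an unadjusted p below 0.05 and were lower. Zbtb16 differed by −0.61 ± 0.21 (limma adjusted p = 0.196) and Cd1d1 by −0.31 ± 0.14 (limma adjusted p = 0.335). The sum of the 3 listed markers on the array was 1858 to 2344 in control and 1594 to 2309 in IL-4 mice. In IL-4d2 mice it was 1231 to 1557, wholly below control.

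Macrophages, dendritic cells and B cells are known to make or answer these chemokines. The counts below stand beside 5.6% of all tested probe sets called higher and 5.08% lower with IL-4. With IL-4d2 these shares were 0.928% and 0.39%. Of 8 macrophage markers, 4 rose and 1 fell with IL-4 and 0 were called with IL-4d2 by limma, where 1 had an unadjusted p below 0.05. The 1 that fell, Marco, was above the array median on 0 IL-4 arrays and entered the test through the other groups. The macrophage sum was 10192 to 12933 in control, 13608 to 15274 in IL-4 and 11035 to 11548 in IL-4d2 mice. Of 6 dendritic cell markers, 2 rose with IL-4 and 0 were called with IL-4d2 by limma, where 2 had an unadjusted p below 0.05, and the sum was 3077 to 3775, 6128 to 7426 and 3477 to 3973. Of 5 B cell markers, 3 rose with IL-4 and 1 with IL-4d2, Ms4a1, whose IL-4d2 difference of 0.74 ± 0.15 (limma adjusted p = 0.0377) was lost when any IL-4d2 mouse was left out (0.73, 0.66 and 0.83 for mouse 1 to 3), and likewise for control mouse 1 (0.73), control mouse 3 (0.59) and IL-4 mouse 3 (0.74). Cd79a, 1 of the 3 called with IL-4, was above the array median on 0 control arrays and entered the test through the cytokine groups. The B cell sum was 2052 to 2646 in control, 3330 to 3710 in IL-4 and 3034 to 3642 in IL-4d2 mice. The B cell sum was above control in all 6 cytokine mice, as were Cxcl9, Cxcl10, Cxcr3 and Cxcl16. The summed signal of 9 interferon-gamma receptor signalling genes was above control in these mice too. That sum was 13462 to 14597 in control, 16561 to 17929 in IL-4 and 15380 to 16884 in IL-4d2 mice. Of all tested probe sets, 14.5% lay wholly above control with IL-4 and 10.6% with IL-4d2, and a link between B cells and the chemokines was not tested. No marker of these lists was at 0.

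Of 8 lung epithelium and endothelium markers, 0 were called in either comparison with control by limma. An unadjusted p below 0.05 was found for 2 with IL-4 and 0 with IL-4d2. Their sum was 131556 to 184934 in control, 163939 to 176154 in IL-4 and 151928 to 168635 in IL-4d2 mice. Of 8 heart and skeletal muscle markers, 6 fell with IL-4, against 5.08% of all tested probe sets. Among those 6, Tnnt3 and Mylpf were above the array median on 3 control arrays and 0 IL-4 arrays. They entered the test through the control group, so the count is a description and no support. With IL-4d2 0 of 8 were called by limma, and 5 had an unadjusted p below 0.05. Their sum was 11908 to 65931 in control, 1600 to 5685 in IL-4 and 5013 to 14558 in IL-4d2 mice. Control mouse 1 was the highest and IL-4 mouse 2 the lowest. Without these arrays 3 of the 5 tested genes were called with IL-4 and 1 with IL-4d2. The 3'/5' signal ratio of Gapdh was 0.955 to 1.45 in control, 1.54 to 1.80 in IL-4 and 1.35 to 1.57 in IL-4d2 mice, and the part of RNA quality in the results was not tested.

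The genes with the most similar profiles were found by the root mean square difference of centred log2 signals over the 9 arrays, among 11979 tested genes outside the 7. Nearest to Cxcl9 were Ighm (0.575), Ccl20 (0.599) and Ly6i (0.611). Nearest to Cxcl10 were Ctla4 (0.215), an inhibitory receptor of T cells, Cd72 (0.274) and Izumo1r (0.277), a folate receptor of regulatory T cells. Ctla4 averaged 76.6 in control, 241 in IL-4 and 231 in IL-4d2 mice. Nearest to Cxcr3 were Was (0.104), the actin regulator of blood cells, St3gal1 (0.118) and Hsp90aa1 (0.122). Nearest to Cxcl16 were Resf1 (0.103), Slc15a4 (0.105), an endolysosomal transporter of immune cells, and Cenpa (0.114). The points share arrays and scaling, and the distances describe these 9 arrays only.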

How the data were processed

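The values are 1 signal intensity per probe set and array, deposited by the authors on a linear scale. Per the submitters' processing notes, Affymetrix Expression Console 2.0, MAS5 and GCOS were used, with no role given for each, and no genome build is named in the sources used here. The deposited intensities of each array have a 2% trimmed mean of 500.002, so a shift shared by most genes cannot be seen in them. Detection calls were not used here, no depth applies, and the number of arrays limits the precision.

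Gene names came from the platform annotation, with 34958 probe sets of 1 symbol, 932 of several and 9211 unnamed here. Signals were transformed to log2(signal + 16), the 64 control probe sets were left out, and 23824 probe sets of 11984 genes were tested. All 9 arrays entered 1 model without covariates, fitted in R 4.3.3 with the functions lmFit and eBayes of limma 3.58.1, with a variance trend, 6 residual degrees of freedom, two-sided tests and Benjamini-Hochberg adjustment over all tested probe sets of a comparison. Intervals are 95% intervals of that fit. Fold changes on this scale understate those of dim genes. Errors after signals are SDs over 3 mice, and those after log2 differences are standard errors. The p-values measure the spread between these mice. The fit was tested on simulated data.

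For a gene with several tested probe sets, the brightest on average on the log2 scale stood for it. Both comparisons with control share the same 3 control arrays. The 7 members and the 13 gene and marker lists were chosen with earlier results of these data known. Named list genes were up to 6 called ones with the largest differences, or the 2 brightest where fewer than 2 were called. Marker genes were named after their values were seen. Some listed genes were not analysed here. Alternatives were another pseudocount, filter, normalization, scaling, variance model, probe set or a block for the mouse number, and arrays left out. The deposited intensities were the only values used, and promoter sequences were RefSeq's.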

Additional observations from a re-analysis of the deposited data

Results flagged for a closer look

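Among the marker genes followed beside the chemokine axes, 4 differed between IL-4 and IL-4d2 mice by the test of that difference itself. Itgax, a dendritic cell and macrophage integrin, was higher with IL-4 by 1.48 ± 0.15 (limma adjusted p = 0.00092), at 3225, 3441 and 2805 in IL-4 against 966, 1355 and 1062 in IL-4d2 mice. Cd83, a marker of mature dendritic cells, was higher by 1.03 ± 0.20 (limma adjusted p = 0.0283), and Mrc1, the mannose receptor of macrophages, by 0.66 ± 0.14 (limma adjusted p = 0.0343). Marco, a scavenger receptor of resident lung macrophages, was lower by −2.34 ± 0.28 (limma adjusted p = 0.00196), at 34.3, 96.2 and 44.7 in IL-4 against 316, 418 and 295 in IL-4d2 mice. The calls of Itgax and Marco held in 9 of 9 fits with 1 array left out. Marco was above the array median on 0 IL-4 arrays, so it entered the test through the control and IL-4d2 groups. Cd83 lost its call without any 1 of the 6 cytokine arrays, with values from 0.93 to 1.10. Mrc1 was no longer called when IL-4 mouse 1 (0.65), IL-4 mouse 2 (0.61) or any IL-4d2 mouse (0.60, 0.73 and 0.66 for mouse 1 to 3) was left out. On the poly-A scale Cd83 was −0.03 and Mrc1 −0.41. None of the 5 tested chemokine axis genes was called between these groups by the same test on the MAS5 scale, and Cxcl11 and Ifng were not in it. The part of these markers in the chemokine values was not tested.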

How the results depend on the processing

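Scaled to the hybridisation and poly-A controls, the genes of the axes called with IL-4 were 2 and 2 and between IL-4 and IL-4d2 2 and 5, and 2 with IL-4d2 on the hybridisation scale. Probe sets called with IL-4 were 7451 and 18123, between IL-4 and IL-4d2 11163 and 22503, and with IL-4d2 519 on the poly-A scale. Without the filter, 244 probe sets were called between IL-4 and IL-4d2 and 2 genes of the axes with IL-4d2. Without the variance trend these were 165 and 2, and 195 probe sets with IL-4d2. With both control mouse 1 and IL-4 mouse 2 left out, 1068, 237 and 200 probe sets were called with IL-4, between the cytokines and with IL-4d2, and 1 gene of the axes with IL-4d2. With 1 array left out, probe sets ran from 1313 to 2210 with IL-4, 110 to 446 between the cytokines and 156 to 417 with IL-4d2, and genes of the axes from 1 to 4 with IL-4d2.

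These signs turned against control with IL-4 on the poly-A scale: Adam10 −0.49, Adam17 −0.20, Adgre1 −0.17, Ciita −0.081, Cxcl16 −0.28 and −0.12 on its probe sets, Cxcr3 −0.067, Cxcr6 −0.040 and −0.31, Igtp −0.031, Iigp1 −0.048, Irf1 −0.35, Mrc1 −0.29, Ms4a1 −0.0014 and Ptpn2 −0.22. On the hybridisation scale Adam10 turned to −0.14 and Irf1 to −0.0067. For IL-4 minus IL-4d2, where no gene of the axes was called on the MAS5 scale, Cd83 and Mrc1 were −0.031 and −0.41 on the poly-A scale. On the hybridisation and poly-A scales Cxcl10 was −0.43 and −0.95, the second Cxcl16 probe set −0.32 and −0.85, the second Cxcl9 probe set −0.092 and −0.59, Cxcr3 −0.49 and −0.9995 and Cxcr6 (1422812_at) −0.42 and −0.92. The other tested probe set gave 0.41 for Cxcl9, 0.21 for Cxcl16 and 0.085 for Cxcr6. With 1 array left out Cxcl10 ran from −0.13 to 0.24, Cxcl9 from −0.37 to 0.24, Cxcr3 from −0.028 to 0.12 and Cxcr6 (1422812_at) from −0.0037 to 0.24. The cause of these changes was not tested.

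Of the alternatives for single genes, 799 kept direction and side of the threshold, 148 lost the call, 8 gained it and 39 turned. Deviations of mice with the same number correlated between −0.0694 and 0.116, with 2 of 9 pairs over 0.1. These values do not show that the numbers pair mice, and with 3 arrays per group they cannot exclude it. With the number as a replicate block, 2427, 312 and 384 probe sets were called with IL-4, with IL-4d2 and between them, 3 genes of the axes were called with IL-4d2, and Cxcr3 was not (adjusted p = 0.0626). Pseudocounts of 1 and 64, the filter on mean signal and quantile normalization left the number of called axis genes at 4, 4 and 0. Signals under the array median, as for Ifng and Cxcl11, limit what can be said of those genes.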

Other observations

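Xcl1, a chemokine of activated T and natural killer cells that draws cross-presenting dendritic cells, was dim and below the array median in too many mice to be tested, and is named after its values were seen. Its signals were 70.2, 16.2 and 44.9 in control, 139, 153 and 147 in IL-4 and 163, 115 and 167 in IL-4d2 mice, with no overlap of the cytokine groups with control. In the fit without the filter the differences were 1.55 ± 0.36 with IL-4 (limma adjusted p = 0.0332) and 1.56 ± 0.36 with IL-4d2 (limma adjusted p = 0.106).

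Cxcl13, the chemokine that draws B cells into follicles, and Ccl5, a chemokine of T and natural killer cells, are also named after their values were seen. Cxcl13 read 185, 753 and 215 in control, 382, 500 and 689 in IL-4 and 1204, 979.5 and 930 in IL-4d2 mice, so IL-4d2 mice lay above control, and the difference of 1.67 ± 0.40 was not called (limma adjusted p = 0.0658). Ccl5 read 700, 794 and 563 in control, 484, 632 and 868 in IL-4 and 1076, 1080 and 1325 in IL-4d2 mice. Its IL-4d2 difference of 0.75 ± 0.19 was not called (limma adjusted p = 0.0801).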
